A study of Mus musculus with 12 samples.

Results

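The genes described here are 9 genes of the small intestinal epithelium, grouped under the name of brush border genes. They are Vil1 and Myo1a of the microvillus core, the apical enzymes Anpep, Sis, Lct and Alpi, the guanylin peptides Guca2a and Guca2b, and Pigr, which carries IgA to the lumen. They were chosen by name, by role, and all 9 were found in the table of FPKM values (fragments mapped to a gene, scaled for its length and for library size) of 23284 genes. Each of the 9 passed the filter on low values, which asked 3 or more libraries to reach an FPKM of 1 and which 12502 genes passed.

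The brush border is the carpet of microvilli on the luminal face of an enterocyte. Actin bundles, crosslinked by villin (Vil1) and tied to the membrane by the motor myosin-1a (Myo1a), hold each microvillus up, and hydrolases anchored in its membrane finish the digestion of peptides and sugars. Guanylin and uroguanylin are small peptides released to the lumen, where they act on a guanylate cyclase receptor, Gucy2c, to steer salt and water secretion. The polymeric immunoglobulin receptor (Pigr) sits on the opposite, basolateral face, binds dimeric IgA made in the lamina propria and carries it across the cell. Their RNA is a mark of intestinal epithelial cells rather than of lymphocytes.

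RNA was sequenced from cells sorted as ILC3s (group 3 innate lymphoid cells, which are tissue lymphocytes) from the intraepithelial layer (IEL) and the lamina propria (LP) of the small intestine of HR-1 mice, a hairless strain, at 18 weeks of age. Each layer had 3 libraries from mice nursed by dams on chow enriched in palmitic acid (PA milk) and 3 from mice nursed on normal milk (ND), and all mice were weaned onto normal chow. Per the paper, PA milk pups were born to dams on normal chow and swapped after birth to the PA dams. No swap is described for ND, so fostering and milk cannot be told apart. The IEL fraction was shaken off the epithelial face of the tissue and the LP fraction was digested from what remained, so the layers also differed in how their cells were released. The labels name no batch and do not say whether an IEL and an LP library came from the same mouse.

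The libraries held 8.76 M to 14.5 M reads, as recovered from the step of their scaled counts. PA IEL replicate 2 and PA LP replicate 2 stood apart, with 4390 and 5637 genes at an FPKM of 1 or more, against 7863 to 11378 in the other 10. The markers of the label were patchy: Thy1, a marker of the sort gate, was listed at 0 in 5 libraries. RNA of epithelial cells was present in all 12 libraries. The summed FPKM of 10 pan-epithelial markers made up 0.929% to 1.50% of all FPKM in ND IEL, 0.149% to 1.23% in PA IEL, 0.357% to 0.770% in ND LP and 0.0597% to 0.192% in PA LP, and 1 of the 10, Krt18, was listed at 0 in PA IEL replicate 2. In bulk RNA of this kind, fewer enterocytes and less RNA per enterocyte cannot be told apart.

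The sequences just upstream of 4 of the genes are shown because Guca2b, Lct and Alpi passed the test between IEL and LP over both diets, and Guca2a is the close relative and neighbour of Guca2b that did not. Each is the 250 bases before the RefSeq start of the gene in GRCm38.p6, read 5′ to 3′ on the strand of the gene. They lie at chr4:119637482-119637731 on the plus strand for Guca2a and, on the minus strand, at chr4:119658946-119659195 for Guca2b, chr1:128328319-128328568 for Lct and chr1:87101607-87101856 for Alpi. Capitals mark matches, on either strand, to short motifs of factors known in enterocytes.
Guca2a: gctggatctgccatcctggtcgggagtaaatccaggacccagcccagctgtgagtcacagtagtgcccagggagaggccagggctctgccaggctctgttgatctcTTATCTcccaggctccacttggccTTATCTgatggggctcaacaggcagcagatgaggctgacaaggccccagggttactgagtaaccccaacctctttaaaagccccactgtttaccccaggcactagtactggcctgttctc
Guca2b: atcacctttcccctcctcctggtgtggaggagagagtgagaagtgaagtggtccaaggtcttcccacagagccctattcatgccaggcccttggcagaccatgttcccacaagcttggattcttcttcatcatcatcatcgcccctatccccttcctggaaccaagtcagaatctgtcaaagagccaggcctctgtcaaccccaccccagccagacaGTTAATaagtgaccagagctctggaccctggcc
Lct: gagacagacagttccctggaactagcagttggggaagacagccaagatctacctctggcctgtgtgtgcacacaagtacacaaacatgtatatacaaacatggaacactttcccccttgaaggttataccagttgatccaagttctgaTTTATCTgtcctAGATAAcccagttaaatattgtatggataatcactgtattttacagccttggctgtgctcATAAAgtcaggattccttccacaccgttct
Alpi: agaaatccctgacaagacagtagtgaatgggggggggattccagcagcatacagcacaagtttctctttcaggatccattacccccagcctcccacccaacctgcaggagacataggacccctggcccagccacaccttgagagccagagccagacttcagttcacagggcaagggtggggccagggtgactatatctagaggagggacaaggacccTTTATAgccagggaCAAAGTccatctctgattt
The core motif of CDX factors was searched as TTTAT and was found in 37.3% of 32851 promoter windows of this length. A site of HNF1 was searched as GTTAAT, found in 6.43%. The GATA motif was searched as AGATAA, found in 9.99%. A site of HNF4 was searched as CAAAGT, found in 12.6%. The TATA box was searched as TATAAA, found in 12.4%, and its opposite strand holds the CDX core. The motifs are common, and a match describes letters, not a bound site. In the Guca2a window the GATA motif matched at 2 places on the opposite strand, ending 139 and 115 bases before the start, and Guca2b held the HNF1 motif at 33 to 28 bases before the start. Lct held both the CDX core and the GATA motif, each on either strand, with 1 pair overlapping. Alpi held the HNF4 motif and, in the same letters, the CDX core and the TATA box. Of the other 5 genes, Sis held the CDX, HNF1 and TATA motifs in its window, and Vil1, Myo1a, Pigr and Anpep held no match to these letters.

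Uroguanylin (Guca2b), intestinal alkaline phosphatase (Alpi) and lactase (Lct) were higher in IEL than in LP. They passed the test averaged over the diets, 3 of 9, where 0.464% of the genes tested were called higher in IEL. In LP, Lct reached an FPKM of 1 only in ND replicate 3. It passed the filter on low values through IEL, where it was high, so its call is not separate from that filter. All 9 had a log2 fold change above 0, as did 46.6% of the genes tested, and the median over the 9 was 2.91, against −0.08 over all genes tested. Every IEL library was above every LP library for these 3 genes, an order that 0.632% of the genes tested showed. With no filter on low values Guca2b had an adjusted p of 0.0632 by limma, and with limma-voom on the scaled counts Guca2b had 0.888 and Alpi 0.757. With a replicate block, which paired libraries of the same number within a diet, Guca2b had 0.0710 and Lct 0.0745 by limma. These calls thus depended on the processing. The values by library follow by role, all as FPKM in the order of replicates 1, 2 and 3.

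**Figure D1:**
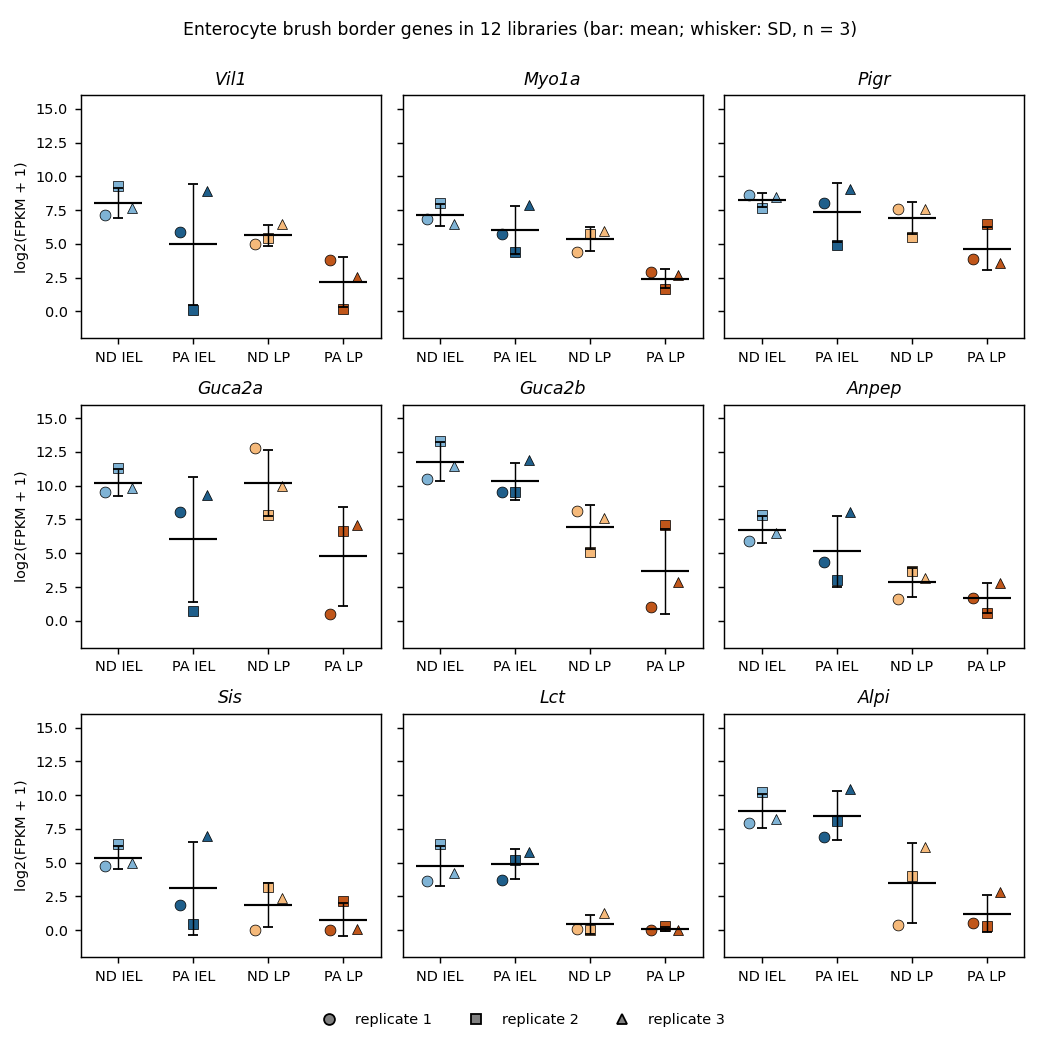
Level of each of the 9 genes in the 12 libraries, as log2(FPKM + 1) on the vertical axis and the 4 groups on the horizontal axis, with points for libraries, a bar for the mean and a whisker for the SD (n = 3). Guca2b, Lct and Alpi are higher in every IEL library than in every LP library, and replicate 2 of PA IEL lies low for Vil1 (0.0750 FPKM) and Guca2a (0.620 FPKM).

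Villin, which bundles the actin core, lies on chromosome 1 (chr1:74409376-74435559 in GRCm38, plus strand) and overlaps Usp37 on the opposite strand, so that without strand in the counting the reads of both in the overlap cannot be told apart. Vil1 was at 138, 625 and 203 in ND IEL and at 58.5, 0.0750 and 472 in PA IEL. It was at 30.0, 42.7 and 88.1 in ND LP and at 12.9, 0.125 and 4.87 in PA LP. The ND layers did not overlap, whereas PA IEL replicate 2, with 3 reads, lay below every PA LP library. Between the layers over both diets the log2 fold change was 2.59 ± 1.16 (SE) with an adjusted p of 0.348 by limma.

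Myosin-1a, the motor that links the actin core to the membrane, is encoded on chromosome 10 (chr10:127705170-127720940, plus strand). Myo1a was at 115, 265 and 86.7 in ND IEL and at 53.3, 20.0 and 237 in PA IEL, and it was detected in all 12 libraries. In LP it was at 19.7, 52.5 and 61.9 in ND and at 6.63, 2.12 and 5.52 in PA milk. Within each diet every IEL library was above every LP library, yet the layers over both diets overlapped, since PA IEL replicates 1 and 2 lay below ND LP replicate 3. The log2 fold change of 2.67 ± 0.70 (SE) had an adjusted p of 0.0793 by limma.

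Alpi, the phosphatase of the apical membrane that removes phosphate from lipopolysaccharide and nucleotides, lies at chr1:87098002-87101606 on the minus strand, and has the close copies Akp3 and Alppl2, with which reads may be shared. Alpi was at 240, 1222 and 302 in ND IEL and at 116, 272 and 1417 in PA IEL. It was at 0.271, 15.0 and 71.5 in ND LP and at 0.475, 0.257 and 6.01 in PA LP. The lowest IEL library was above the highest LP library, and the log2 fold change over both diets was 6.27 ± 0.96 (SE), the largest of the 9, with an adjusted p of 0.00549 by limma.

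Lactase, which splits milk sugar, lies at chr1:128284756-128328318 on the minus strand. Lct was at 11.2, 83.1 and 17.8 in ND IEL and at 11.9, 36.1 and 54.6 in PA IEL. In LP it was near the limit of detection, at 0.0363, 0 and 1.39 in ND and at 0.0131, 0.214 and 0.0307 in PA milk, and 4 of these 6 libraries had 3 reads or fewer. The log2 fold change was 4.55 ± 0.81 (SE) with an adjusted p of 0.0157 by limma. Without ND LP replicate 2, the library in which Lct was listed at 0, the log2 fold change was 4.44 and the adjusted p was 0.0638. The fold is on the log2(FPKM + 1) scale, which understates changes of genes this low.

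Aminopeptidase N (Anpep), which trims peptides, lies at chr7:79821803-79861059 on the minus strand and overlaps an unverified transcript, Gm44974. Anpep was at 58.8, 225 and 91.6 in ND IEL and at 19.7, 6.99 and 263 in PA IEL. It was at 2.11, 12.1 and 8.14 in ND LP and at 2.18, 0.454 and 5.80 in PA LP. Within each diet the layers did not overlap, and the log2 fold change of 3.69 ± 0.91 (SE) had an adjusted p of 0.0653 by limma.

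Sucrase-isomaltase (Sis), which splits sucrose and starch fragments, lies at chr3:72888557-72967863 on the minus strand. Sis was at 25.9, 80.5 and 30.7 in ND IEL and at 2.57, 0.384 and 128 in PA IEL. It was at 0.0127, 8.08 and 4.32 in ND LP and at 0, 3.56 and 0.0805 in PA LP, where replicate 1 held no read. The ND layers were apart and the PA milk layers overlapped, and the log2 fold change of 2.91 ± 1.11 (SE) had an adjusted p of 0.253 by limma.

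The polymeric immunoglobulin receptor lies at chr1:130826684-130852249 on the plus strand. Pigr was at 383, 203 and 353 in ND IEL and at 263, 28.7 and 524 in PA IEL, so that ND IEL was its most even group, with a mean of 313 ± 96.5 (SD, n = 3). It was at 193, 44.7 and 194 in ND LP and at 13.7, 89.4 and 10.9 in PA LP, never below 10.9 in any library. The log2 fold change of 2.0 ± 0.73 (SE) had an adjusted p of 0.222 by limma.

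Guanylin and uroguanylin are encoded side by side on chromosome 4, Guca2a at chr4:119637704-119639471 on the plus strand and Guca2b at chr4:119656607-119658954 on the minus strand, with 17135 bases and 0 annotated genes between them. Guca2b was at 1474, 10436 and 2817 in ND IEL and at 735, 749 and 3854 in PA IEL. It was at 277, 33.4 and 191 in ND LP and at 0.993, 136 and 6.30 in PA LP. Every IEL library was thus above every LP library, and the log2 fold change of 5.76 ± 0.87 (SE) had an adjusted p of 0.00549 by limma.

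Guca2a did not pass the test between the layers. It was at 738, 2591 and 910 in ND IEL and at 266, 0.620 and 637 in PA IEL, and at 7099, 231 and 1000.1 in ND LP and 0.442, 100.01 and 137 in PA LP. Its highest value was in an LP library, the layers overlapped within each diet, and the log2 fold change of 0.64 ± 1.37 (SE) had an adjusted p of 0.913 by limma. That value was −0.18 without PA IEL replicate 3 and −0.42 without PA LP replicate 1.

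The balance of the pair was chosen for display after the values were seen, so it is given as a description, with no test. In IEL, Guca2b exceeded Guca2a in FPKM in all 6 libraries, by a ratio of 2.0, 4.03 and 3.10 in ND and of 2.77, 1207 and 6.05 in PA milk. In LP the ratio was 0.0390, 0.145 and 0.191 in ND and 2.24, 1.36 and 0.0460 in PA milk, so that Guca2a was the higher of the pair in 4 of 6 libraries. The log2 ratio, taken of FPKM + 1 and not of the FPKM ratios above, averaged 2.93 ± 2.95 (SD, n = 6) in IEL and −2.19 ± 2.22 (SD, n = 6) in LP. The difference between the layers within each diet, averaged over the diets, was 5.12. It was 4.37 without PA IEL replicate 2 and PA LP replicate 1, in which Guca2a had 3 and 2 reads.

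**Figure D2:**
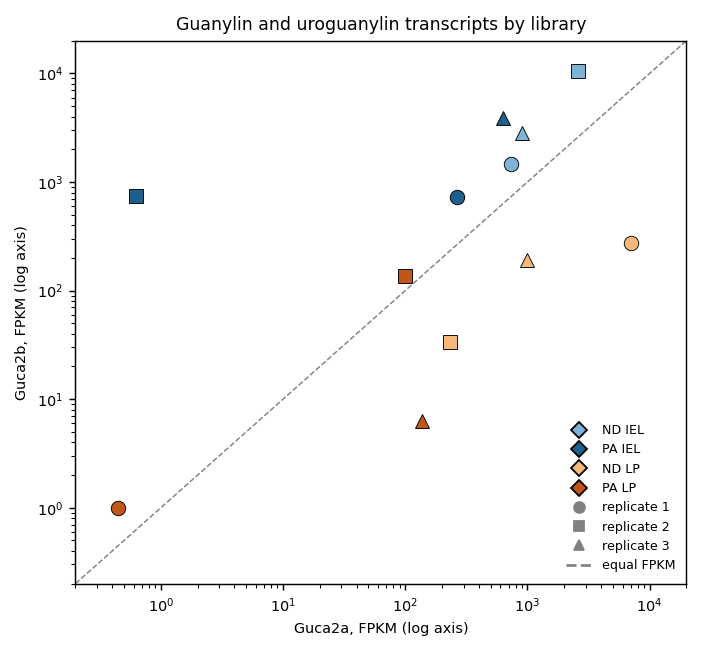
Guca2a (horizontal axis) against Guca2b (vertical axis) in each of the 12 libraries, both as FPKM on log axes, with the dashed line at equal values. All 6 IEL libraries lie above the line, and the 3 ND LP libraries and PA LP replicate 3 lie below it.

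The gene with the highest level was not the same in most IEL and LP libraries. Guca2b was the highest of the 9 in all 6 IEL libraries, with 46.3% to 67.2% of their summed FPKM. Guca2a was the highest in the 3 ND LP libraries and in PA LP replicate 3, with 52.5% to 93.2%. Pigr was the highest in PA LP replicate 1, with 36.8%, and Guca2b in PA LP replicate 2, with 40.9%. Lct or Sis was the lowest in 10 of 12 libraries, and Vil1 was the lowest in the other two, the replicates 2 of PA IEL and PA LP.

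**Figure D3:**
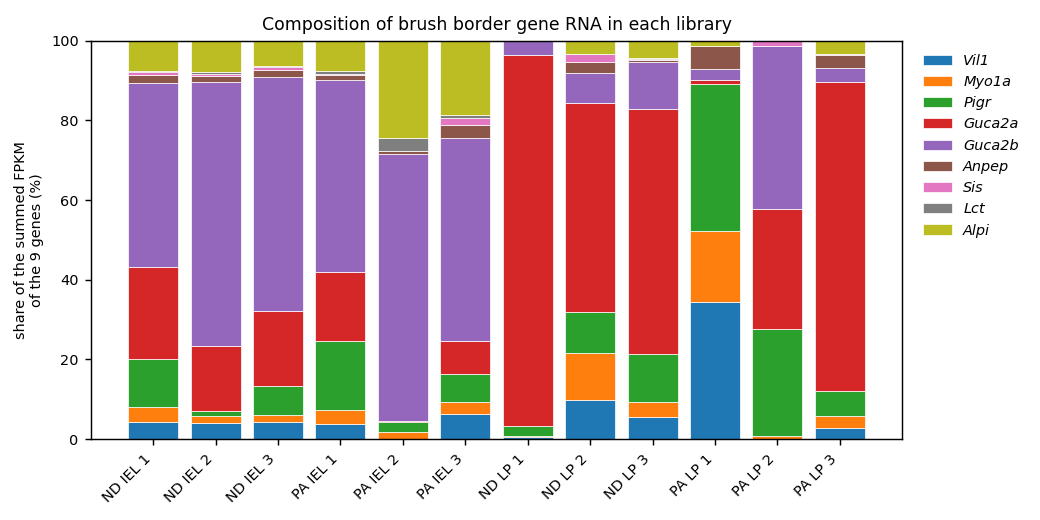
Share of each gene in the summed FPKM of the 9 genes (vertical axis, percent) in each of the 12 libraries (horizontal axis), with bars stacked to 100. Guca2b takes 46.3% to 67.2% of each IEL bar, and Guca2a takes 52.5% to 93.2% of the 3 ND LP bars and of PA LP replicate 3.

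Within ND mice, the IEL libraries were above the LP libraries without overlap for 8 of the 9 genes, all but Guca2a, an order that 9.95% of the genes tested showed. The log2 fold changes ran from 0.03 for Guca2a to 5.29 for Alpi, with a median of 3.49. By limma 0 of the 9 passed the test and 5 had an unadjusted p under 0.05, where 0.032% and 6.63% of the genes tested did, and limma-voom on the scaled counts called 0 as well. Without PA LP replicate 2, whose spread enters the shared estimate, Guca2b (4.84) had an adjusted p of 0.0383 by limma, and without PA IEL replicate 2 as well it had 0.0364, among 121 genes called. With sample quality weights, which give libraries with a wide spread less weight, 4 of the 9 were called among 793 genes, with adjusted p-values of 0.00118 for Guca2b, 0.00635 for Lct, 0.0126 for Alpi and 0.0166 for Anpep by limma. With 3 libraries against 3, the smallest p of an exact permutation test is 0.1, which each of those 8 genes reached.

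Within PA milk mice, 5 of the 9 genes were higher in every IEL library than in every LP library, namely Myo1a, Guca2b, Anpep, Lct and Alpi, against 4.06% of the genes tested. Guca2b, at a log2 fold change of 6.68 ± 1.24 (SE), and Alpi, at 7.24 ± 1.35 (SE), passed the test, both with an adjusted p of 0.0464 by limma. This was 2 of 9 genes, where 0.144% of the genes tested were called in either direction. Both calls sat close to the threshold. Neither was made with a pseudocount of 0.1, without a filter, with either other scaling, with the replicate block, in a fit of the compared groups alone or with limma-voom, where adjusted p-values ran from 0.0633 to 0.977. The adjusted p of Guca2b was 0.0524, 0.0658 and 0.0692 without ND IEL replicates 1, 2 and 3, 0.0593, 0.0824 and 0.242 without PA IEL replicates 1, 2 and 3, 0.0540 when ND LP replicate 3 was left out, and 0.173 and 0.0906 without PA LP replicates 1 and 3. That of Alpi was 0.0835, 0.0770 and 0.0879 without ND IEL replicates 1, 2 and 3, 0.0824 and 0.248 without PA IEL replicates 2 and 3, 0.0695 when ND LP replicate 2 was left out and 0.167 without PA LP replicate 1. With sample quality weights Myo1a (adjusted p = 0.0494) and Pigr (0.0307) were also called by limma. Without PA IEL replicate 2 and PA LP replicate 2, chosen after seeing the data, Myo1a (0.0307) and Pigr (0.00497) were called and Alpi (0.0563) was not. Both settings also called more genes in all than the main fit.

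The layer comparison over both diets was also made without the libraries with few genes. Without PA IEL replicate 2, Vil1 (log2 fold change 3.81, adjusted p = 0.0265), Myo1a (3.08, 0.0209), Pigr (2.61, 0.0422) and Anpep (4.23, 0.0209) also passed the test between the layers over both diets by limma, which made 7 of the 9 called among 250 genes in all, in place of 3 among 110. Without both libraries with few genes, an alternative chosen after seeing the data, 8 of the 9 were called, all but Guca2a, among 826 genes in all. The number of genes called in all was 521 without PA LP replicate 2 and 38 without ND IEL replicate 2, and in both cases 3 of the 9 were called.

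**Figure D4:**
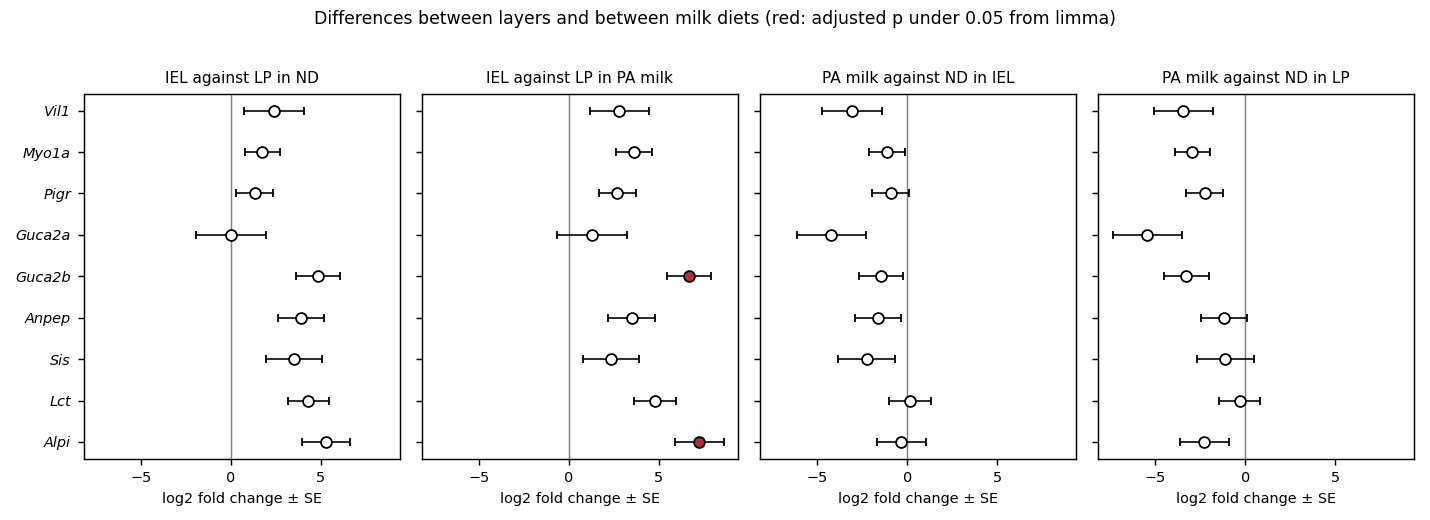
log2 fold change (horizontal axis) with its SE for each of the 9 genes in 4 comparisons: IEL against LP within ND and within PA milk, and PA milk against ND within IEL and within LP. Filled red points, Guca2b and Alpi in the PA milk layers, had an adjusted p under 0.05 by limma, and no gene passed in the milk diet comparisons.

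Markers of epithelial cells in general were also compared between the layers. Of the 10 pan-epithelial markers, 8 had a log2 fold change above 0, 2 were below 0 and 3 were called higher in IEL over both diets, Krt8 (1.87), Krt20 (3.77) and Cldn3 (2.23). Of the genes tested, 46.6% were above 0 and 0.464% were called higher. When each of the 9 genes was set against the summed FPKM of those 10 markers in the same library, the median log2 difference between IEL and LP was 1.18, where it was 2.91 before, and 8 of the 9 were above 0. The share over all genes tested was not computed on this scale, so how unusual that count is cannot be told. Guca2b (4.03) and Alpi (4.53) were still higher in every IEL library than in every LP library, Lct (2.81) overlapped across the diets although not within either, and Pigr (0.27) and Guca2a (−1.09) overlapped. The part of total epithelial content in the layer differences was not tested.

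None of the 9 genes passed the test between PA milk and ND by limma. In IEL, 8 of 9 had a log2 fold change below 0 with PA milk, all but Lct at 0.16, where 60.5% of all genes tested were below 0, and the median was −1.45 against −0.30 over all genes tested. By limma 0 of the 9 were called, as were 0.0% of the genes tested, and limma-voom called 0 as well. Guca2a, at −4.21 ± 1.94 (SE) with an unadjusted p of 0.0455 and an adjusted p of 0.947 by limma, was the 1 gene of 9 with an unadjusted p under 0.05, where 3.58% of genes tested had it. It was also the 1 gene lower in every PA IEL library than in every ND IEL library, which held for 5.22% of genes tested. Without PA IEL replicate 2 the median of the 9 was −0.55, Guca2a was at −1.55, and Pigr turned from −0.92 to 0.30.

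In LP, all 9 genes had a log2 fold change below 0 with PA milk, as did 62.2% of the genes tested, with a median of −2.28 against −0.36 over all genes tested. By limma 0 of the 9 were called, as were 0.0% of the genes tested, and 4 had an unadjusted p under 0.05, where 4.7% of the genes tested did; limma-voom called 0. Those 4 were Guca2a at −5.44 ± 1.94 (SE), Guca2b at −3.28 ± 1.24, Myo1a at −2.94 ± 0.996 and Pigr at −2.25 ± 1.03. Without PA LP replicate 1, Guca2a was at −3.32 and Guca2b at −1.95, and without PA LP replicate 2 Guca2b was at −5.00. Vil1, Myo1a and Guca2a were lower in every PA LP library than in every ND LP library, 3 of 9 against 6.6% of the genes tested. The summed FPKM of the 9 genes made up 0.0617% to 0.968% of all FPKM in ND LP and 0.00512% to 0.0433% in PA LP, and the pan-epithelial markers 0.357% to 0.770% and 0.0597% to 0.192%. Other marker lists were counted for the diet in LP: all 5 goblet markers had a log2 fold change below 0 with a median of −5.15, all 5 B and plasma cell markers with −3.71, and 11 of the 12 ILC3 and sort markers with −1.59. None of the markers in these 3 lists was called by limma, and 4, 2 and 2 of them had an unadjusted p under 0.05. Not every list fell. The 5 Paneth markers had a median of 0.018, with 3 above 0, and the 5 myeloid markers a median of −0.68, with 2 above 0. All 6 enterocyte lipid markers were below 0, with a median of −1.42. Of these too, 0 were called, and the part of any list in the result was not tested. Set against the pan-epithelial markers, the median log2 difference between the diets was −0.31 in LP and −0.20 in IEL. The genes spread widely around it, from −3.48 for Guca2a to 1.64 for Lct in LP, where Lct was near the limit of detection. In IEL they ran from −2.96 for Guca2a, lower in every PA milk library than in every ND library, to 1.41 for Lct.

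Averaged over the layers, 5 of the 9 had an unadjusted p under 0.05 for the diet, where 6.02% of the genes tested did, and 0 were called by limma or limma-voom. The lowest adjusted p was that of Guca2a, 0.654, at −4.83 ± 1.37 (SE). The difference of the diet effect between IEL and LP was called for 0 of the 9 and for 0.0% of the genes tested, and 0 of the 9 had an unadjusted p under 0.05, where 2.34% did. The comparisons between diets and between layers share the same 12 libraries and are not independent of each other.

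Genes with related roles were described from lists drawn up by role. Among 16 other microvillus genes, 14 had a log2 fold change above 0 between IEL and LP over both diets and 3 were called higher, where 46.6% of the genes tested were above 0 and 0.464% were called higher: the intermicrovillar adhesion cadherins Cdhr2 (5.47, adjusted p = 0.0046) and Cdhr5 (4.24, 0.0469) and their cytoplasmic partner Anks4b (4.20, 0.0106), each by limma. Among 15 other apical enzymes tested, all were above 0, with a median of 3.36, and trehalase (Treh, 5.27) and the sphingomyelinase Enpp7 (5.34) were called. Anks4b stayed under an FPKM of 1 in every LP library and Treh in most, so both passed the filter on low values through IEL. The receptor of the guanylins, Gucy2c, had a log2 fold change of 2.06 ± 0.98 (SE) and an adjusted p of 0.379 by limma, and it was not among the calls, nor were the other 3 genes of its list. Of 8 genes of apical traffic and IgA tested, 5 were above 0 and 0 were called, with the J chain gene Igj (now Jchain), whose product Pigr binds, at −1.64 ± 2.36 (SE) and Rab8a at 1.19 ± 0.44 (SE). Of 9 enterocyte transcription factors, 8 were above 0 and 0 were called, with Elf3 at −0.10 ± 1.08 (SE) and Klf5 at 1.85 ± 0.50 (SE).

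Markers of enterocyte lipid handling and of other cells were counted in the same way. All 6 enterocyte lipid markers were above 0 with a median of 5.36, and Fabp2 (5.02), Apoa1 (7.49) and Apoa4 (7.88) were called higher in IEL, whereas all 5 goblet markers and all 5 Paneth markers were below 0, with medians of −2.10 and −2.30 and 0 called by limma. Of those, 1 goblet marker and 3 Paneth markers had an unadjusted p under 0.05 by limma, as did 1681 of the 12502 genes tested. Both means joined unlike diets. The goblet median was −3.33 in ND and −0.86 in PA milk, with 1 of 5 above 0 in PA milk. The Paneth median was −0.50 in ND, with 2 of 5 above 0, and −4.10 in PA milk. The 12 ILC3 and sort markers had a median of 0.08, with 7 above 0 and 0 called, but this mean joined a median of −1.19 in ND, with 10 of 12 below 0, and of 1.196 in PA milk, with 9 of 12 above 0, and 0 called in each. B and plasma cell markers had 1 of 5 above 0 and myeloid markers 1 of 5, with 0 called in each. Within the diets, B and plasma cell markers had 0 of 5 above 0 in ND and 4 of 5 in PA milk. The 20 leukocyte genes used for an alternative scaling had a median of −0.05 and 0 called.

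**Figure D5:**
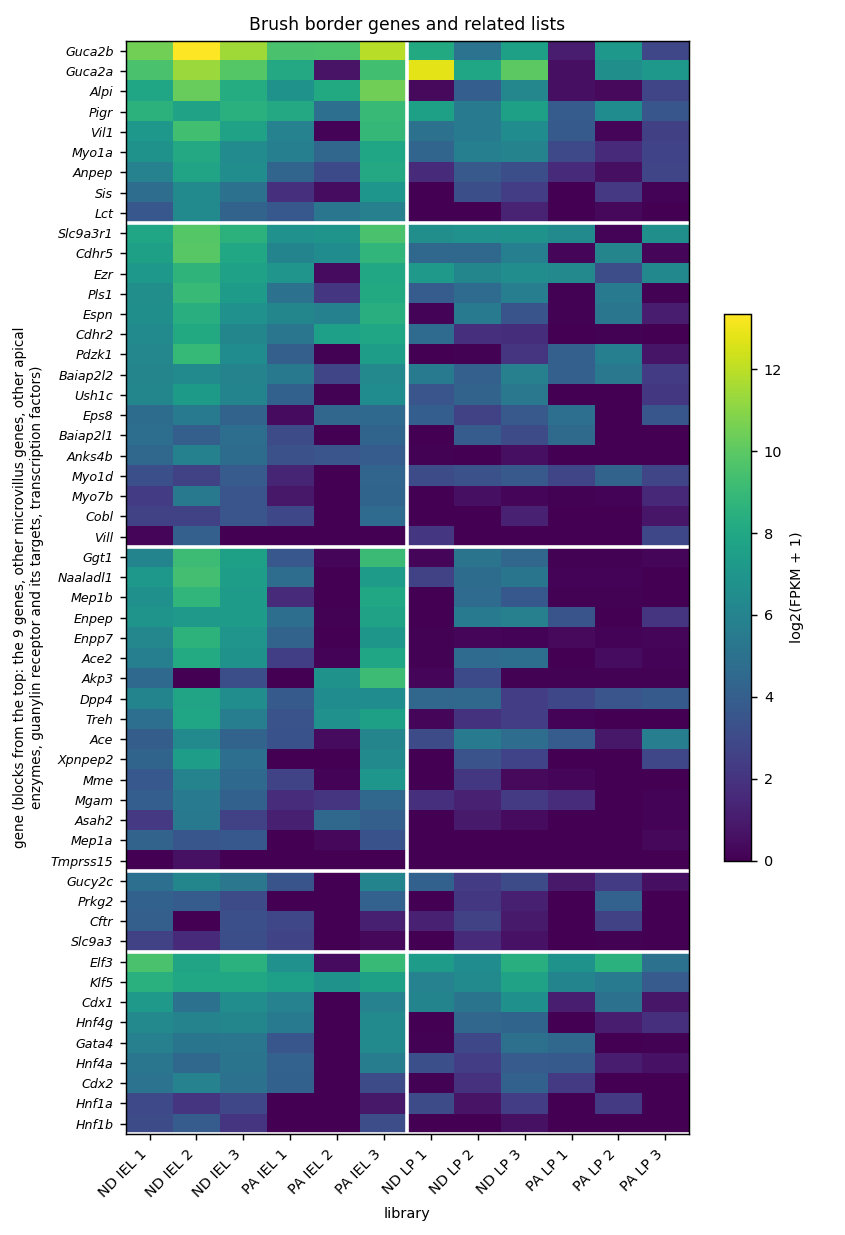
log2(FPKM + 1) by colour for the 9 genes and 4 related lists (rows) in the 12 libraries (columns, IEL left of the white line). Rows of microvillus and apical enzyme genes are brighter in IEL, for example Cdhr2, and PA IEL replicate 2 is dark for Vil1 and Guca2a but not for Guca2b and Alpi.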

How the data were processed

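RNA of sorted ILC3s was amplified with the SMART-Seq v4 Ultra Low Input kit. Per the labels, the authors mapped reads to mm10 with TopHat2 2.1.1, Bowtie2 2.2.8.0 and SAMtools 0.1.18 and quantified genes with Cufflinks and Cuffdiff 2.2.1. The authors deposited FPKM values of 23284 genes in 12 libraries, and a table of counts that is a signal scaled across libraries and rounded: among 1514 genes with large values, its ratio to FPKM varied by a median of 0.0250% across libraries. Reads per library were recovered from the step of that signal. The step held for 91.4% to 100.0% of low values, within a tolerance of 0.05, and intervals from reads cover counting error alone. Because the library normalization had already been applied, no model for raw counts was the main test.

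Values were tested as log2(FPKM + 1) with limma 3.58.1 in R 4.3.3 (mean-variance trend, 4 group means, all 12 libraries), in the 12502 genes that reached an FPKM of 1 in 3 or more libraries, with Benjamini-Hochberg adjustment over all of them and a threshold of 0.05. The script was tested on simulated data with a smaller spread than that of the 9 genes, which checks the code and not its power here. Groups and replicate numbers came from the labels, which do not say that libraries are separate mice, so p-values measure the spread between these libraries. Alternatives were a pseudocount of 0.1, no filter, a filter of 6 libraries, other scalings, the compared groups alone, a replicate block, limma-voom, sample quality weights and each library left out. The genes and lists were chosen with earlier results of these data known. From each list (microvillus structure, apical enzymes, guanylin receptor and targets, apical traffic and IgA, transcription factors, pan-epithelial, ILC3 and sort, goblet, Paneth, enterocyte lipid, B and plasma cell, myeloid, leukocyte scaling), genes called between groups were named, otherwise those with the highest mean FPKM. Sequences and starts came from RefSeq (GRCm38.p6; all 9 genes matched by symbol) and gene positions from the GRCm38 annotation.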

Additional observations from a re-analysis of the deposited data

How the results depend on the processing

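The direction of Guca2b, Lct and Alpi between the layers was the same under every alternative, and their calls were not. Over both diets, the replicate block gave adjusted p-values of 0.0710 for Guca2b and 0.0745 for Lct by limma, with 29 genes called in place of 110. Same-numbered IEL and LP libraries of the same diet correlated from −0.0312 to 0.0600 in their deviations. With 3 libraries per group such values cannot decide whether the numbers pair the samples, and no further pairing was made. Without a filter Guca2b was lost, as it was with Alpi under limma-voom; sample quality weights added Vil1, Myo1a, Pigr, Anpep and Sis. In PA milk alone, the replicate block gave 0.246 for Guca2b and 0.0687 for Alpi, and it ended no other call of the 9 genes. The cause of these changes was not tested. Scaling on leukocyte genes moved the median over all genes from −0.36 to 0.00 for the diet in LP and from −0.09 to 0.30 between the layers in ND, and upper quartile scaling moved it from −0.30 to −0.54 for the diet in IEL. For the diet in IEL and LP, limma-voom gave medians of −0.96 and −1.003, and the fit without the 2 libraries with the fewest genes gave 0.0029 and −0.052. The limit of 3 reads was reached by Vil1, Guca2a, Sis or Lct in 5 libraries, and differences of such values were not detectable at this depth.

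The number of genes called between the layers over both diets, 110, was 58 with a pseudocount of 0.1, 30 without a filter, 29 with the replicate block, 982 with quality weights, 826 without the 2 libraries with the fewest genes (chosen after seeing the data) and 38 to 521 with each library left out. In ND it was 4, and 1 with a pseudocount of 0.1 or upper quartile scaling, 0 without a filter, with the replicate block or with limma-voom, 2 with the stricter filter, 92 with the compared groups alone, 793 with quality weights, 121 without the 2 libraries and 0 to 65 with each left out; the median of the 9 genes there, 3.49, was 2.60 with quality weights and 2.56 to 3.93 with each left out. In PA milk it was 18, and 3 without a filter, 9 with upper quartile scaling, 1 with the compared groups alone, 5 with the replicate block, 134 with quality weights, 314 without the 2 libraries and 1 to 291 with each left out. For the diet it was 0 to 1 in IEL, 0 to 7 in LP and 0 to 2 over the layers with each library left out. The replicate block gave 3 in LP, 2 over the layers and 1 for the difference of the diet effect, quality weights 3 in LP and 1 over the layers, and scaling on leukocyte genes 1 over the layers.

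Signs turned in genes with small changes. For the diet in IEL, Lct (0.16) was −0.31 with upper quartile scaling, −0.046 with scaling on leukocyte genes and −0.41 to 0.98 with each library left out; Alpi (−0.33) was 0.038 with quality weights and −1.32 to 0.48; Pigr (−0.92) was 0.30 without the 2 libraries and −1.77 to 0.30. Lct ranged from −0.54 to 0.088 in LP and from −0.37 to 0.33 over the layers, with 0.029 under quality weights. Between the layers, Guca2a ranged from −1.15 to 1.32 in ND, with −0.087 under upper quartile scaling, from −0.86 to 3.92 in PA milk and from −0.42 to 1.98 over both. For the difference of the diet effect, Vil1 (0.39) was −0.24 with scaling on leukocyte genes, −0.23 with limma-voom and −1.57 to 2.82 with each left out; Anpep (−0.43) was 0.45 with quality weights, 0.084 without the 2 libraries and −1.88 to 0.64; Sis (−1.15) was 0.75, 0.88 and −3.10 to 0.17 in the same order; Lct ranged from −0.090 to 1.30 and Guca2a from −0.89 to 3.90.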

Other observations

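The genes outside the 9 whose level over the 12 libraries was most like the mean of the 9 were picked by Pearson's r of log2(FPKM + 1), as a description. The first was 2210404O07Rik (r = 0.978), followed by Ckmt1, the mitochondrial creatine kinase (0.970), and Slc5a1, the sodium-glucose cotransporter of the apical membrane (0.958). Slc5a1 was at 133, 390.4 and 178 FPKM in ND IEL, at 26.2, 5.96 and 537 in PA IEL, at 0.0581, 10.7 and 25.2 in ND LP and at 0.104, 0.122 and 0.0736 in PA LP. The other 7 of the first 10 were Scp2, H2-T3, Btnl5, Naaladl1, Hexdc, H2-Bl and Cyp2d26. All points share their libraries and depth, and the layers differ in mean, which sets part of each r.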
